A study of Homo sapiens with 6 samples.

Results

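The clade B serpins of epithelia other than SERPINB2 were followed in RNA-sequencing counts of HaCaT cells. The 9 genes (SERPINB1, SERPINB3, SERPINB4, SERPINB5, SERPINB6, SERPINB7, SERPINB8, SERPINB9 and SERPINB13) were chosen by name, out of 46287 rows of the count table. HaCaT cells are human keratinocytes that became immortal in culture without an introduced gene. Of the 6 libraries, 3 came from cells carrying a homozygous SDR42E1 knockout made by CRISPR/Cas9, and 3 from unedited HaCaT cells of the same culture conditions. All cells were grown as monolayers in serum-containing medium without a treatment and harvested before confluence. SDR42E1 is a short-chain dehydrogenase/reductase, and its loss was studied in connection with vitamin D. The labels call the replicates biological, with no word on whether each was its own culture or its own edited clone. P-values therefore measure the spread between these libraries.

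Serpins are protease inhibitors that present a reactive centre loop as bait: the protease cuts the loop, the serpin changes shape, and both stay locked together. Clade B serpins lack a classical secretion signal, work mainly inside the cell, and are thought to protect it from its own or from invading proteases. In epidermis several of them are made by keratinocytes, and inherited loss of SERPINB7 or SERPINB8 causes skin disease. In the human genome they form a small cluster on the short arm of chromosome 6 and a larger one on the long arm of chromosome 18.

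Library totals ran from 11504473 to 13454544 counts in knockout cells and from 12094896 to 16928201 in control cells. SDR42E1 had 268, 265 and 237 counts in knockout cells and 650, 822 and 601 in control cells (log2 fold change -1.16, SE 0.08; edgeR's quasi-likelihood test gave an adjusted p of 2.69e-14), so its RNA was lower but present. All 10 keratinocyte markers were tested, and their summed level was 9128 to 9432 CPM (counts per 1000000 counts of the scaled library) in knockout libraries and 8818 to 9390 CPM in control libraries. Within that sum 6 markers were higher, 1 was lower and 3 did not pass, with a median log2 fold change of 0.33. KRT5, the basal keratin, averaged 1709 CPM in knockout cells and 2698 CPM in control cells (-0.66), and LAMB3, a laminin chain of the basement membrane, 714 CPM in knockout cells and 456 CPM in control cells (0.65). Markers of other cell types were low. Summed CPM in knockout and control libraries was 1.12 to 2.13 and 4.30 to 6.19 for 7 fibroblast genes (DCN and PDGFRA at 0), 1.40 to 2.81 and 3.17 to 3.25 for 5 melanocyte genes (TYR at 0), 9.18 to 10.5 and 6.33 to 9.20 for 7 leukocyte genes (CD3E and CD79A at 0), and 1.92 to 2.66 and 3.65 to 4.28 for 4 endothelial genes.

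Enough reads for a test were found for 8 of the 9 serpins, and SERPINB9 had no read in any library. Of the 8, 6 rose in knockout cells, 1 fell and 1 did not pass the threshold of 0.05 on the adjusted p. The rises were SERPINB3, SERPINB8, SERPINB7 and SERPINB1, at 1.79-fold to 2.09-fold, and SERPINB13 and SERPINB5, at 1.33-fold and 1.16-fold. Of the 12293 tested genes, 4.99% rose at least 1.5-fold, as 4 of the members did. SERPINB6 was the member that fell, and SERPINB4 had a value of 1.74-fold that did not pass. Changed genes were common in these cells: 24.6% of the 12293 tested genes were higher in knockout cells at this threshold, 25.8% lower and 50.4% changed in either direction. The median log2 fold change was 0.82 over the 8 tested members and 0.00 over all tested genes. In 7 members every knockout library lay above every control library, and in SERPINB6 every one lay below. Over all tested genes the groups lay apart in this way in 27.5% (knockout higher) and 29.0% (knockout lower).

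**Figure D1:**
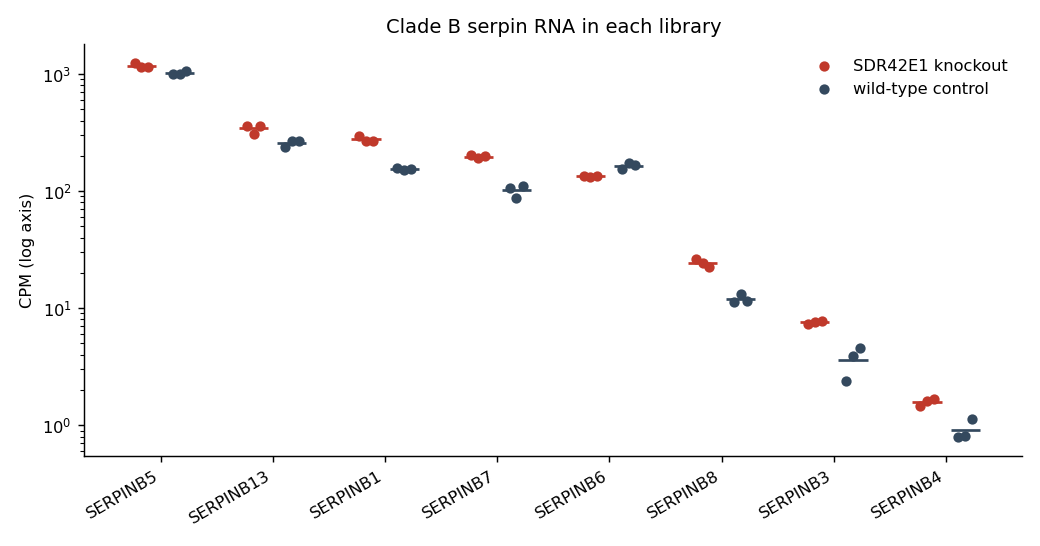
CPM of each tested clade B serpin (log axis) in 3 knockout libraries (red) and 3 control libraries (dark blue); points are libraries and bars are means. SERPINB6 is the gene whose knockout points lie below the control points.

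The members differ in what they inhibit. SERPINB3 and SERPINB13 act on lysosomal cysteine proteases of the cathepsin family. SERPINB4, the near copy of SERPINB3, and SERPINB1, SERPINB6, SERPINB8 and SERPINB9 act on serine proteases. SERPINB5 inhibits no protease, and SERPINB7 is known mostly from its skin disease.

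SERPINB3 and SERPINB4, the squamous cell carcinoma antigens, are neighbouring copies of each other on the minus strand of chromosome 18 (SERPINB3 at chr18:63655197-63661963, SERPINB4 at chr18:63637259-63644298, GRCh38). SERPINB3 inhibits cathepsins K, L and S, and SERPINB4 inhibits cathepsin G and mast cell chymase. Their coding sequences were of equal length (1173 bases with the stop codon) and 95.2% identical, with 56 differing bases and a longest identical run of 129 bases. The next most alike pair of members, SERPINB8 and SERPINB9, were 73.3% identical over their aligned coding bases. Of 1074 windows of 100 bases along the coding sequence, 44 (4.1%) held no difference. A read of that length within the coding sequence would thus usually meet at least 1 differing base. Transcript bases outside the coding sequence were not compared. Neither the read length nor the handling of reads that match both genes is stated. The stretch of 120 coding bases in which the copies differ most, coding bases 950 to 1069, holds 18 of the 56 differences. It is shown because, within the coding sequence, it separates reads of the copies best. It codes for part of the reactive centre loop. Capitals mark the bases that differ, and both are written 5′ to 3′ on the minus strand from GENCODE 29 transcripts (chr18:63655761-63655880 for SERPINB3 and chr18:63637823-63637942 for SERPINB4).
SERPINB3: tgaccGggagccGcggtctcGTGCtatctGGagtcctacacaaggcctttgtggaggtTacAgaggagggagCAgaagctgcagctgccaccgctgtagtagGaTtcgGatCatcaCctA
SERPINB4: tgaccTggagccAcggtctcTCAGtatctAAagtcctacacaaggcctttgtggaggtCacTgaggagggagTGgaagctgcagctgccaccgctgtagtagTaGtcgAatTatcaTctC

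SERPINB3 had 7.35, 7.67 and 7.70 CPM in knockout cells (85, 101 and 88 counts) and 2.37, 3.93 and 4.55 CPM in control cells (33, 68 and 56 counts). Every knockout library was above every control library, and control replicate 1 was the lowest of the 6. The means were 7.57 ± 0.193 CPM in knockout cells and 3.62 ± 1.12 CPM in control cells (SD, n = 3 each), a log2 fold change of 1.07 with an SE of 0.21 (edgeR, adjusted p = 4.34e-05). Without control replicate 1 the value was 0.84, below those of SERPINB7 (1.00), SERPINB8 (0.96) and SERPINB1 (0.86) in the same fit, so the order of these 4 rises is not settled.

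SERPINB4 had 17, 21 and 19 counts in knockout cells and 11, 14 and 14 in control cells. Its levels of 1.47, 1.59 and 1.66 CPM in knockout cells lay above the 0.792, 0.810 and 1.14 CPM of control cells. At these counts the log2 fold change of 0.80 had a 95% interval of 0.03 to 1.57, and the adjusted p was 0.0774 (unadjusted 0.042, edgeR's quasi-likelihood test). A doubling lay within that interval. With the reads of both copies summed into 1 row, that row changed by 1.02 on the log2 scale (SE 0.19, edgeR, adjusted p = 2.05e-05). SERPINB3 supplied most of its counts, so the summed row says little about SERPINB4 alone.

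The split of reads between the copies was compared directly. SERPINB4 took 16.7%, 17.2% and 17.8% of the summed SERPINB3 and SERPINB4 counts in knockout libraries and 25.0%, 17.1% and 20.0% in control libraries. The ranges overlapped, and every library's exact binomial 95% interval was wide, from 9.66% to 27.0% in control replicate 2, for example. These intervals cover counting error only. The mean share was 17.2% ± 0.545 in knockout cells and 20.7% ± 4.01 in control cells (SD, n = 3 each), a difference of -3.48 percentage points. An exact two-sided permutation test over the 6 libraries gave p = 0.3, where 0.1 is the smallest value 3 against 3 can give.

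SERPINB13, also called hurpin or headpin, inhibits cathepsins K and L and was first described in keratinocytes (chr18:63586989-63604639, plus strand). It had 361, 306 and 361 CPM in knockout cells and 239, 269 and 265 CPM in control cells. The lowest knockout library, replicate 2, was still above the highest control library. The means were 343 ± 31.8 CPM in knockout cells and 258 ± 16.1 CPM in control cells (SD, n = 3 each; log2 fold change 0.41, SE 0.06, adjusted p = 1.03e-05 in edgeR).

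SERPINB1 and SERPINB6 lie on the minus strand of the short arm of chromosome 6, at chr6:2832332-2842006 and chr6:2948159-2972165, and moved in opposite directions. SERPINB1, an inhibitor of neutrophil elastase, proteinase 3 and cathepsin G, had 297, 267 and 266 CPM in knockout cells and 158, 151 and 155 CPM in control cells. The groups lay far apart beside their spread (277 ± 17.7 CPM in knockout cells, 155 ± 3.41 CPM in control cells, SD, n = 3 each). In log2 terms SERPINB1 was higher by 0.84 (SE 0.05; edgeR, adjusted p = 1.27e-16), the smallest adjusted p of the members.

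SERPINB6, an inhibitor of cathepsin G, trypsin and thrombin whose loss causes hearing impairment in humans, had 135, 133 and 135 CPM in knockout cells and 155, 172 and 165 CPM in control cells. All knockout libraries were below all control libraries, by a small step. The means were 134 ± 1.29 CPM in knockout cells and 164 ± 8.75 CPM in control cells (SD, n = 3 each; log2 fold change -0.29, SE 0.05, adjusted p = 1.29e-05 in edgeR). The ratio of SERPINB1 to SERPINB6 counts within a library, which needs no scaling between libraries, was 2.19, 2.01 and 1.98 in knockout cells and 1.02, 0.877 and 0.938 in control cells. It averaged 2.06 ± 0.118 in knockout cells and 0.945 ± 0.0713 in control cells (SD, n = 3 each), which follows from the opposite moves of the 2 genes.

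SERPINB8 inhibits the proprotein convertase furin, and its inherited loss causes peeling skin (chr18:63969925-64019779, plus strand). It had 26.4, 24.1 and 22.6 CPM in knockout cells and 11.4, 13.25 and 11.6 CPM in control cells, with no overlap. The means were 24.4 ± 1.91 CPM in knockout cells and 12.1 ± 1.02 CPM in control cells (SD, n = 3 each; log2 fold change 1.01, SE 0.11, adjusted p = 9.11e-10 in edgeR). Annotated exons of HMSD, a gene on the same strand, share 370 bases with those of SERPINB8, so reads there may count for either. AC009802.1, an antisense gene, shares 257 bases of annotated exon with SERPINB8, where reads could be mixed if strand was not used. HMSD stood at 2.56 ± 0.311 CPM in knockout cells and 4.25 ± 1.69 CPM in control cells (SD, n = 3 each; log2 fold change -0.71, adjusted p = 0.0291 in edgeR). That call was lost in DESeq2 (0.0971), in limma-voom (0.0976) and without knockout replicate 1 (0.0507), knockout replicate 2 (0.118) or control replicate 3 (0.343, log2 fold change -0.37).

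SERPINB9, the inhibitor of granzyme B that protects cytotoxic lymphocytes from their own enzyme, had 0 counts in all 6 libraries (chr6:2887266-2903280, minus strand). A count of 0 allows a level of up to 0.228 to 0.262 CPM in a knockout library and 0.174 to 0.244 CPM in a control library (3 counts each, counting error only). No direction can be given for it.

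SERPINB5, or maspin, has a serpin fold but inhibits no protease and is known as a tumour suppressor of epithelia (chr18:63476761-63505085, plus strand). Per length it was the most abundant member, and it had 1247, 1152 and 1142 CPM in knockout cells and 996, 1002 and 1062 CPM in control cells. No knockout library overlapped a control library. Its rise was small and lay beyond the spread between libraries (1180.4 ± 58.1 CPM in knockout cells, 1020.2 ± 36.1 CPM in control cells, SD, n = 3 each; log2 fold change 0.21, SE 0.05, adjusted p = 0.000246 in edgeR).

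SERPINB7, whose loss causes Nagashima-type palmoplantar keratosis, roughly doubled (chr18:63752935-63805376, plus strand). It had 203, 190.1 and 199 CPM in knockout cells and 105, 87.8 and 111 CPM in control cells. The lowest knockout library was well above the highest control library. The means were 197 ± 6.57 CPM in knockout cells and 101 ± 12.0 CPM in control cells (SD, n = 3 each; log2 fold change 0.97, SE 0.07, adjusted p = 1.16e-10 in edgeR).

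**Figure D2:**
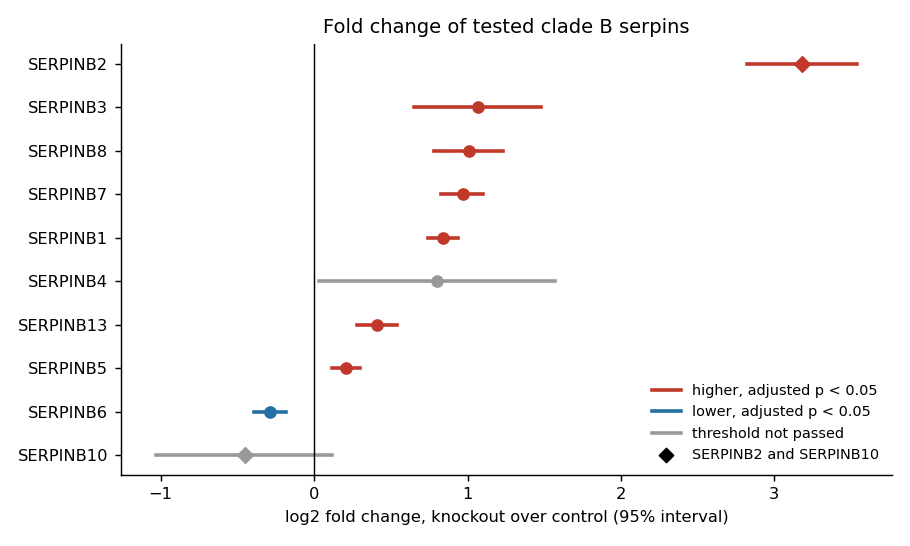
Log2 fold change of the tested clade B serpins, knockout over control, with 95% intervals; circles are the members and diamonds SERPINB2 and SERPINB10. SERPINB3, SERPINB8, SERPINB7 and SERPINB1 lie between 0.84 and 1.07, the interval of SERPINB4 runs from 0.03 to 1.57, and SERPINB6 lies at -0.29.

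The members differed widely in level. Levels between genes were compared as CPM per kilobase of gene length, with the union of all annotated exons as the length. SERPINB5 stood highest, at 299.7 ± 14.8 CPM per kb in knockout cells and 259 ± 9.17 CPM per kb in control cells (SD, n = 3 each). It made up 53.6% of the summed level per kb of the 9 members in knockout cells and 61.5% in control cells. That sum was 559 ± 26.9 CPM per kb in knockout cells and 421 ± 14.4 CPM per kb in control cells (SD, n = 3 each).

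In knockout cells SERPINB1 followed at 89.5 CPM per kb, then SERPINB13 at 75.6 and SERPINB7 at 74.8, and the ranges of SERPINB13 and SERPINB7 overlapped. SERPINB6 came next at 10.2 CPM per kb. SERPINB3 at 4.26 and SERPINB8 at 4.15 CPM per kb overlapped, and SERPINB4 at 0.783 was the lowest member with reads. In control cells SERPINB13 (56.8 CPM per kb) stood above SERPINB1 (49.9), and SERPINB7 (38.4), SERPINB6 (12.4), SERPINB8 (2.06), SERPINB3 (2.04) and SERPINB4 (0.453) followed. There the ranges of SERPINB8 and SERPINB3 overlapped, and other neighbours in the order did not.

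These levels depend on the length used, and the place of SERPINB6 with them. Its annotated exons cover 13201 bases, while the transcript with its longest coding sequence has 1566 bases. With the latter as the length it stood at 85.8 ± 0.821 CPM per kb in knockout cells and 105 ± 5.59 CPM per kb in control cells (SD, n = 3 each), second only to SERPINB5 in control cells. On that length the order of SERPINB1 and SERPINB13 in knockout cells (106 and 107 CPM per kb, overlapping) was not resolved, nor was that of SERPINB7 and SERPINB6 (89.5 and 85.8 CPM per kb, overlapping). The sum of the 9 members was then 824 ± 36.9 CPM per kb in knockout cells and 663 ± 21.1 CPM per kb in control cells (SD, n = 3 each), and the share of SERPINB5 51.5% in knockout cells and 55.3% in control cells.

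**Figure D3:**
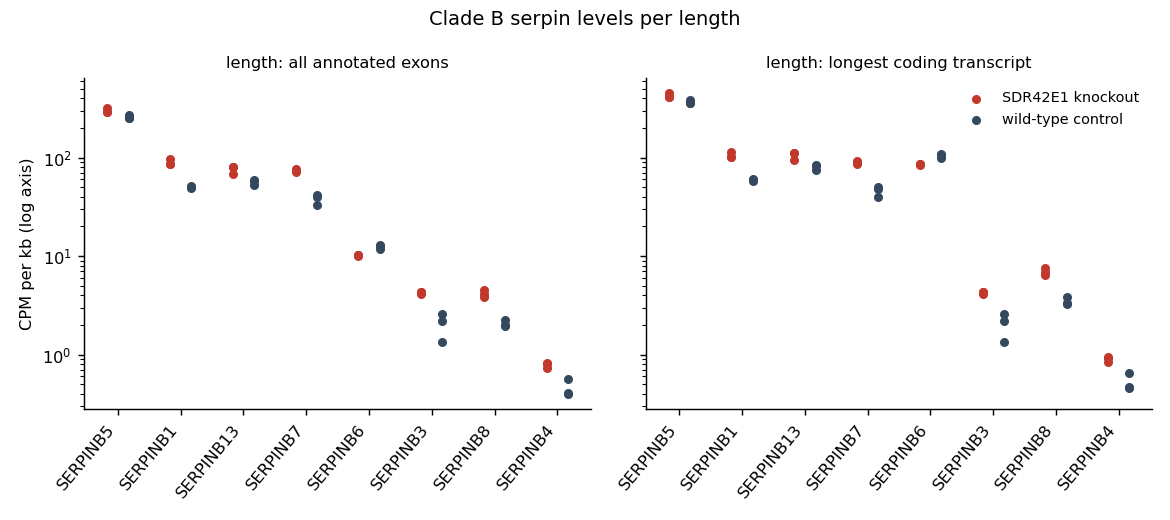
CPM per kb (log axis) of 8 members in knockout (red) and control (dark blue) libraries. The gene length is all annotated exons (left) or the transcript with the longest coding sequence (right, titled longest coding transcript). SERPINB6 averages 10.2 (knockout) and 12.4 (control) CPM per kb on the left and 85.8 and 105 on the right, while SERPINB5 is highest in both panels.

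The other clade B serpins gave 1 rise and no fall that passed. SERPINB2, an inhibitor of plasminogen activators, had 1104, 1129.8 and 1036 CPM in knockout cells and 141, 101 and 119 CPM in control cells (log2 fold change 3.18, SE 0.14, adjusted p = 2.63e-05 in edgeR). SERPINB10, a serpin of blood cell precursors whose gene overlaps the end of SERPINB2, averaged 2.03 ± 0.291 CPM in knockout cells and 2.77 ± 0.225 CPM in control cells (SD, n = 3 each) and did not pass (adjusted p = 0.186 in edgeR). SERPINB12, an inhibitor of trypsin-like proteases, had 1 count over the knockout libraries and 7 over the control libraries. SERPINB11 had 1 count over the knockout libraries and 0 over the control libraries. It runs antisense to SERPINB3 and shares 620 bases of annotated exon with it.

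Position along the clusters was set beside these changes. Over all tested genes of chromosome 6 (603) and chromosome 18 (176) the median log2 fold change was 0.02 and 0.03. On chromosome 6, within 2 Mb of the members, 18 other protein-coding genes were tested, of which 3 rose, 4 fell and 11 did not pass (median -0.04). Over all 12293 tested genes, 24.6% were higher and 25.8% lower. FOXQ1 and FOXC1, forkhead transcription factors, changed by -0.59 and -0.38, and CDYL and WRNIP1 by 0.26 and 0.21. None of these exceeded the 0.84 of SERPINB1.

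On chromosome 18 the clade B genes with a call rose, from SERPINB5 at the centromeric end (0.21) through SERPINB13 (0.41), SERPINB3 (1.07), SERPINB7 (0.97) and SERPINB2 (3.18) to SERPINB8 (1.01). SERPINB4 and SERPINB10 lie among them and did not pass. Of 10 other tested genes within 2 Mb, 3 rose, 6 fell and 1 did not pass (median -0.26). The shares over all tested genes were 24.6% higher, 25.8% lower and 50.4% changed in either direction. RNF152, a lysosomal ubiquitin ligase, changed by -1.04 and PIGN, an enzyme of GPI anchor synthesis, by -0.31. The sphingolipid enzyme gene KDSR and the endosomal ATPase gene VPS4B, both next to the cluster on its centromeric side, rose by 0.34 and 0.19. The cell survival gene BCL2, further out on that side and named after its value was seen, rose by 1.08 (adjusted p = 0.00622, or 0.0536 without knockout replicate 3, edgeR). HMSD, between SERPINB10 and SERPINB8, had a value of -0.71. TNFRSF11A, still further out and also named after its value was seen, had the largest fall of these genes (-1.15). Tested genes around the cluster thus moved both ways. VPS4B, KDSR and BCL2 were the nearest on the centromeric side, and no tested gene lay beyond the cluster on the other side.

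**Figure D4:**
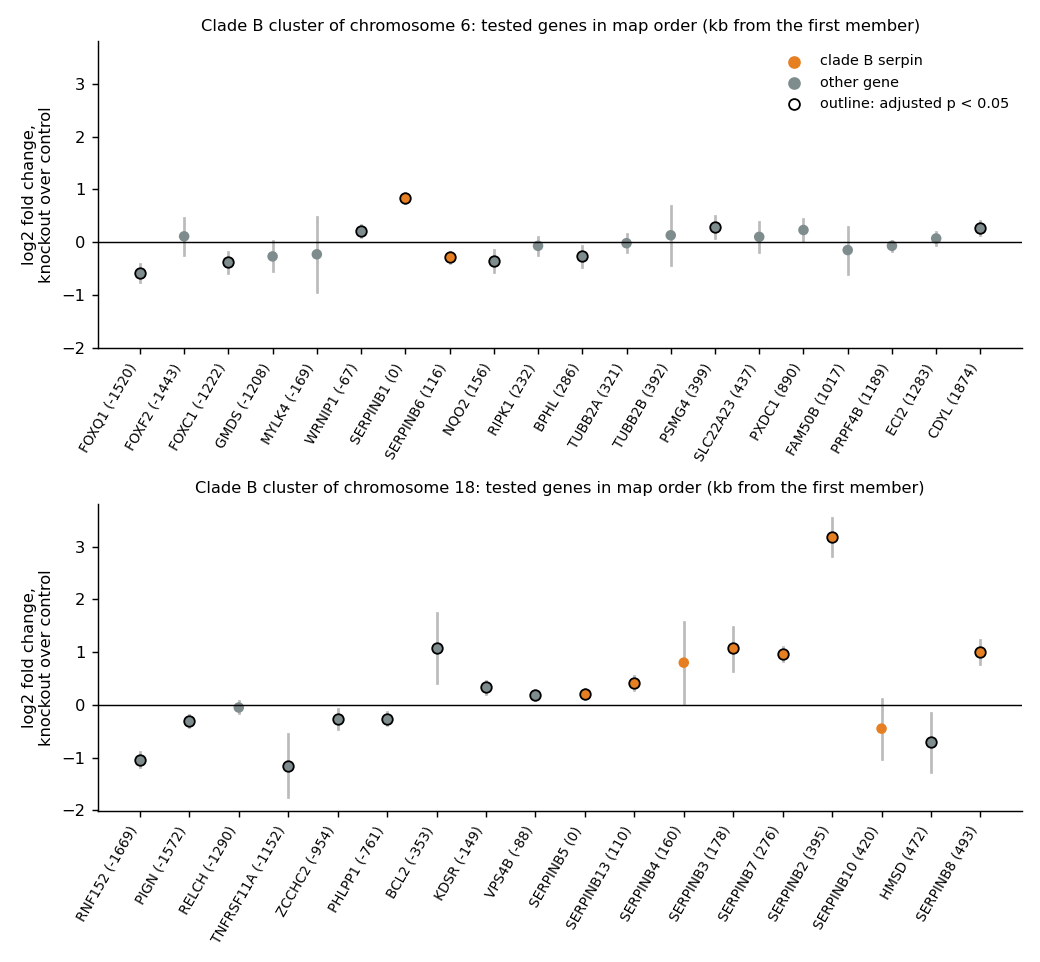
Log2 fold change (knockout over control, with 95% intervals) of tested protein-coding genes around the clade B clusters of chromosome 6 (top) and chromosome 18 (bottom), in map order; numbers in brackets are kb from the start of the first member. Serpins are orange and an outline marks an adjusted p under 0.05. On chromosome 18 serpins from SERPINB5 to SERPINB8 lie above 0 except SERPINB10, while RNF152 lies at -1.04 and HMSD at -0.71.

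Promoters of the members were searched in RefSeq windows of the GRCh38.p14 genome, over the 250 bases before each start site. All 9 members matched, with 14 windows in all, since SERPINB6 and SERPINB7 have several start sites. The letters TGANTCA are a loose form of the AP-1 transcription factor site, whose usual central base is C or G. The pattern reads alike on both strands. It was found in 5 of the 14 windows, those of SERPINB5, SERPINB7, SERPINB8 and SERPINB13. Over all 35116 windows 6.57% held this loose pattern, and over all 27305 genes 8.06% had at least 1 such window. The motif was chosen with the results known, and a match is a description of the letters only.

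SERPINB7 and SERPINB8 each had a match within 50 bases of a start site. SERPINB13 and SERPINB5 had theirs 87 and 146 bases before it, and SERPINB2, the clade B gene with the highest fold change, had one 102 bases before it. The matches of SERPINB5 and SERPINB2 had A in the centre, which is not the usual AP-1 site. SERPINB7 and SERPINB8 had further matches 154 to 206 bases before a start site, with A or T in the centre. The nearest match to each start site is shown with the bases around it and the motif in capitals, on the plus strand of chromosome 18, at chr18:63775368-63775396 and chr18:63777725-63777753 (SERPINB7, 2 start sites), chr18:63970042-63970070 (SERPINB8), chr18:63587245-63587273 (SERPINB13) and chr18:63476801-63476829 (SERPINB5).
SERPINB7, first site: gtgctgtgctcTGAGTCAtagggaagcca
SERPINB7, second site: tagggagtgtcTGAGTCAgaggctttata
SERPINB8: tcgaacggttcTGAGTCAtctgccggaag
SERPINB13: tcgagagatgcTGACTCAgttggtctggg
SERPINB5: taacttcagccTGAATCAtttctttcaat
SERPINB1 and SERPINB3, which rose by 0.84 and 1.07, had no such letters in these windows, nor did SERPINB4 and SERPINB6. The SERPINB3 and SERPINB4 windows differed at 3 of 250 bases. The direct repeat bound by the vitamin D receptor was found in none of the members' windows and in 0.202% of all windows. The letters TATAAA, on either strand, were found in windows of SERPINB7, SERPINB8 and SERPINB9 and in 10.7% of all windows.

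Proteases that clade B serpins inhibit moved both ways. Of 12 such genes, 5 had enough reads, and of these 2 rose, 2 fell and 1 did not pass (median log2 fold change -0.19). CTSL, a lysosomal endopeptidase bound by SERPINB3 and SERPINB13, rose to 60.1 ± 5.72 CPM in knockout cells, against 36.6 ± 2.70 CPM in control cells (SD, n = 3 each; log2 fold change 0.72, SE 0.08). FURIN, the target of SERPINB8, rose by 0.22 (SE 0.06). CTSK changed by -1.01 (adjusted p = 0.00956, or 0.0514 without knockout replicate 1, edgeR), at 1.28 CPM in knockout cells and 2.56 CPM in control cells. It lies on the long arm of chromosome 1, where 548 tested genes had a median of -0.32, whose part in this value was not tested. KLK8, a kallikrein of the epidermis, changed by -0.19 (adjusted p = 0.0361), with overlapping groups, and did not pass in DESeq2 (0.128), in limma-voom (0.0523) or in 4 of the 6 fits without 1 library (0.0614 to 0.272). The leukocyte proteases CTSG, ELANE, PRTN3, GZMH and CMA1 had no read, and GZMB had 10 counts over the knockout libraries and 2 over the control libraries.

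Of 11 tested cathepsins 3 rose, 5 fell and 3 did not pass (median -0.37). CTSL, CTSK and CTSS belong to this list and to that of the inhibited proteases above, so the counts of these lists overlap. CTSB, a lysosomal cysteine protease, averaged 270.2 ± 12.5 CPM in knockout cells and 501 ± 15.8 CPM in control cells (SD, n = 3 each; log2 fold change -0.89, SE 0.05). CTSC, which trims the ends of other proteases, rose by 0.64, and the aminopeptidase gene CTSH changed by -0.37.

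Of 9 other epithelial protease inhibitors that were tested, 5 rose, 1 fell and 3 did not pass (median 0.18). SLPI, a secreted inhibitor of neutrophil elastase, averaged 35.4 ± 1.70 CPM in knockout cells and 11.2 ± 0.921 CPM in control cells (SD, n = 3 each; log2 fold change 1.65, SE 0.10). CSTA, the cystatin of the cornified envelope, rose by 0.87 (SE 0.07). PI3, or elafin, had 60 counts over the knockout libraries and 8 over the control libraries (log2 fold change 3.12, SE 0.56). Its value was 4.27 without control replicate 2 and 2.65 without control replicate 3. LXN, an inhibitor of carboxypeptidases, fell by 1.00 (SE 0.13). In each of these lists the background is the 24.6% of tested genes that were higher and the 25.8% that were lower.

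**Figure D5:**
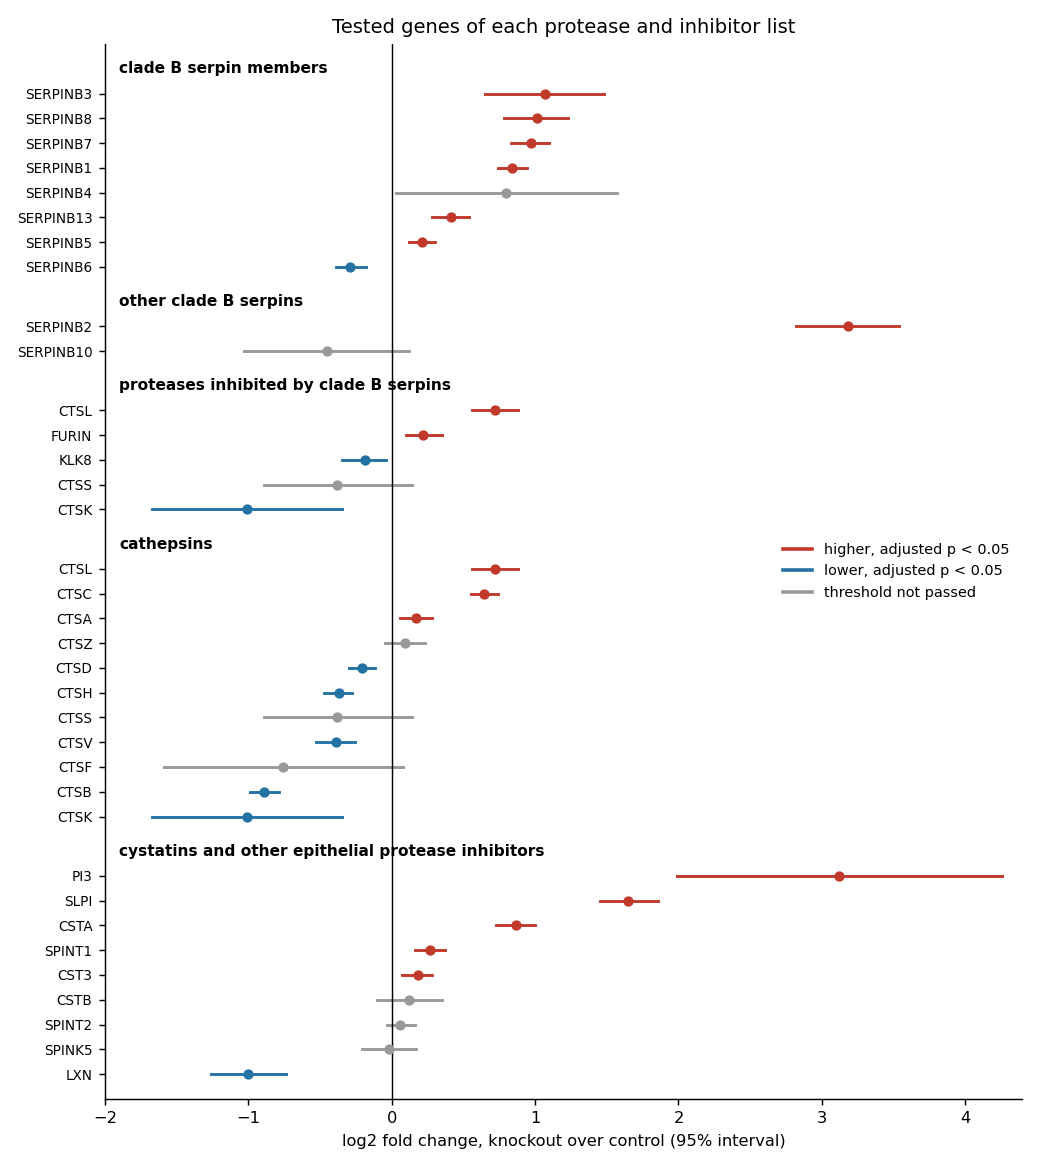
Log2 fold change (knockout over control, with 95% intervals) of each tested gene in the lists of proteases and inhibitors; red is higher and blue lower at an adjusted p under 0.05, grey did not pass. The members lie between -0.29 and 1.07, and values in the other lists run from CTSK (-1.01) to SERPINB2 (3.18).

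The genes with the pattern most like SERPINB3, taken because its estimate over all 6 libraries was the highest of the members that passed, were PLEKHG5, MTURN and PTPRR. Likeness was the Euclidean distance of centred log2 CPM over the 6 libraries, which was 0.308, 0.321 and 0.332. Such a choice favours genes whose libraries are ordered as in SERPINB3, so the shared pattern is no separate result. In each, the knockout libraries lay above the control libraries without overlap, and each was lowest in control replicate 1, as SERPINB3 was. PLEKHG5 had 22.8 ± 1.68 CPM in knockout cells and 12.3 ± 2.80 CPM in control cells (SD, n = 3 each). PTPRR, at 1.61 CPM in knockout cells and 0.758 CPM in control cells, did not pass in DESeq2 (adjusted p = 0.0976) or without knockout replicate 1 (0.0843), knockout replicate 3 (0.0597) or control replicate 1 (0.135).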

How the data were processed

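The authors deposited 1 table of raw counts per gene for 6 libraries of total RNA, made with a stranded kit per the labels' protocols. The submitters' processing notes name GRCh38 as the build. The sources used here do not give what aligned and counted the reads, or whether strand was used. Columns were matched to samples by name. Rows passing filterByExpr (at least 10 counts, total at least 15) were scaled by TMM and tested with edgeR 4.0.16 in R 4.3.3 (robust quasi-likelihood F test, knockout over control, no block, two-sided), with Benjamini-Hochberg adjustment over all 12293 tested genes and a threshold of 0.05. SE was taken as the size of the log2 fold change divided by the root of F, and 95% intervals use the fit's degrees of freedom. CPM was computed from the counts on TMM-adjusted library sizes. Counts of libraries of 1 group differed by more than counting noise (2.65 to 4.49 chi-square units per degree of freedom).

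The members and the lists were chosen with earlier results of these data known. Named by rule were the members, SDR42E1, the other clade B serpins and the 3 genes most like the member with the largest change. So were up to 4 tested genes with the smallest adjusted p of each list and of each cluster's neighbours. HMSD, BCL2, TNFRSF11A, KRT5, LAMB3 and genes at 0 were named after their values were seen. Gene positions, lengths and coding sequences came from GENCODE 29, promoters from RefSeq. Alternatives were DESeq2 1.42.0, limma-voom (limma 3.58.1), RLE and upper-quartile scaling, other filters, the replicate block and leaving out each library. Bulk RNA cannot tell fewer cells from less RNA per cell. Serpins of other clades are not reported here.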

Additional observations from a re-analysis of the deposited data

How the results depend on the processing

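Under 13 other settings of the whole fit, the same count of members passed, 6 higher and 1 lower, and 105 of 106 member values had the same sign and the same call. The exception was the row that summed SERPINB3 and SERPINB4, set against SERPINB4 alone. That row passed (log2 fold change 1.02, edgeR, adjusted p = 2.05e-05), but SERPINB3 supplied most of its counts. SERPINB4 taken alone did not pass in any setting, at 11 to 21 counts per library. Ranges over all settings were 0.79 to 0.87 for SERPINB1, 0.84 to 1.24 for SERPINB3, 0.17 to 0.24 for SERPINB5, -0.33 to -0.25 for SERPINB6, 0.87 to 1.03 for SERPINB7, 0.95 to 1.08 for SERPINB8 and 0.36 to 0.49 for SERPINB13. The SERPINB4 share differed by -5.29 to -1.32 percentage points when 1 library was left out. Of 33 other genes followed, CTSK, KLK8, PTPRR, HMSD and BCL2 lost their call under at least 1 setting, in 17 values, and 0 reversed. Changed genes numbered 5315 (DESeq2) to 6425 (replicate block). The replicate block changed no call of a member. Deviations of libraries with equal numbers correlated at 0.0155, -0.0889 and -0.0145, and those with unequal numbers at -0.109 to 0.131. With 3 libraries per group these values cannot tell whether libraries were handled in pairs, and the labels do not say. Among all calls the share that was higher was 43.4% with upper-quartile scaling and 48.8% with TMM, and upper-quartile scaling moved the median of all genes by less than 0.1.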
